A study of Rattus norvegicus with 60 samples.

Results

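The retina of the rat was examined at 24 h of reperfusion after ischemia, by setting the 6 rats of the ischemia-reperfusion (IR) group killed at 24 h against the 6 sham control rats of the same time. These 12 arrays, 1 per rat, are the 24 h samples by their labels, out of 60 arrays in the series, and all 350 rat miRs of the array were followed on them. The animals were male Long Evan's hooded rats of 250 to 300 g. In the IR group the anterior chamber of an eye was cannulated and the intraocular pressure was held at 110 mmHg for 60 min by a raised saline reservoir, and flow was then allowed to return for 24 h. The sham control rats underwent the cannulation with no rise in pressure, so anesthesia, eye drops and needle are shared by both groups. Total RNA of the whole retina was measured, and in such a bulk sample a loss of cells of a given type and a lower amount of RNA per cell cannot be told apart. The groups at 2 h and 48 h of reperfusion, 6 IR and 6 sham control rats each, were used only to see where 24 h differed from its neighbors.

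MiRs are short RNAs cut from hairpin precursors. A mature miR guides a silencing complex to mRNAs that pair with its seed, the run of bases near its 5′ end, and lowers their stability or translation. In the retina, the cluster of rno-miR-183, rno-miR-96 and rno-miR-182 is known from photoreceptors, rno-miR-124 and rno-miR-9 from neurons, and rno-miR-204 and rno-miR-211 from the pigment epithelium. RNA of a pressure-induced ischemic retina can also carry signs of injury and inflammation, for which rno-miR-21 and rno-miR-146b are known in many tissues.

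The mature sequences of the miRs that carry the main difference are given first, because the array names do not show them. Of the 12 miRs that were called higher and were detected on all 12 arrays, 9 had an entry in RefSeq (GRCr8), and these 9 have 9 different seeds. The seed, bases 2 to 8, is in capitals. The arm was taken from the name, from the sole arm listed, or from the strand that the older name is known to stand for, and for 11 miRs given an arm in this last way the distances between neighboring miRs on the rat genome pointed to the same arm, with no case of the other arm.
rno-miR-21-5p: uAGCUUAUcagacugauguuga
rno-miR-20a-5p: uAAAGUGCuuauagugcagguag
rno-miR-539-5p: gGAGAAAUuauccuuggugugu
rno-miR-206-3p: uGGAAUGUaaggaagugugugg
rno-miR-672-5p: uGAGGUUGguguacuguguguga
rno-miR-207: cUUCUCCUggcucuccucccuuu
rno-miR-346: uGUCUGCCugagugccugccucu
rno-miR-338-5p (rno-miR-338* on the array): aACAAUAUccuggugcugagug
rno-miR-331-3p: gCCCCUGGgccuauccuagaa

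On GRCr8, rno-miR-21 lies at chr10:71902653-71902674 on the minus strand and rno-miR-20a at chr15:98588318-98588340 on the plus strand. No spanning RefSeq gene was found for either, but genes whose symbol begins with Mir, which can include host genes of miRs, were left out of the search. Several of the others lie within the span of a protein-coding gene, namely rno-miR-207 in Dnaja1 (chr5:60638847-60638869, plus strand), rno-miR-346 in Grid1 (chr16:10224315-10224337, plus), rno-miR-338* in Aatk (chr10:105796381-105796402, minus), rno-miR-331 in Vezt (chr7:30414401-30414421, minus) and rno-miR-672 in Nexmif (chrX:73192351-73192373, minus). Rno-miR-539 (chr6:134563606-134563627, plus) and rno-miR-206 (chr9:30590747-30590768, plus) lie within long noncoding RNAs. Exon and intron were not resolved, and the strand of the spanning gene was not compared.

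The IR arrays were dimmer than the sham control arrays before any scaling. The log2 75th percentile of total signal (the summed fluorescence of a miR's probes, over the 57 miRs detected on all 60 arrays) averaged 8.27 ± 0.57 for IR retinas and 10.42 ± 0.35 for their sham counterparts (SD, n = 6 each). This is a 4.44-fold lower signal, and no IR array reached the dimmest sham control array (p = 0.00216 by a two-sided exact permutation test, the smallest p that 6 against 6 allows). The IR mean was lower by 1.53, 2.42 and 2.59 on the log2 scale within the 3 scans. Of the 24 h arrays, scan 1 held only replicates 1 and 2 of each group, and scan 3 only replicate 6 of each. Here and below, the value for scan 3 thus sets a single array against a single array. Fewer miRs were detected on the IR arrays, 105 ± 17.3 against 158 ± 38.4 (SD, n = 6, exact test, p = 0.00433), and 101 miRs were detected on sham control arrays only, against 0 on IR arrays only. No slide held arrays of both 24 h groups, so slide and group can be separated only through the other time points.

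**Figure D1:**
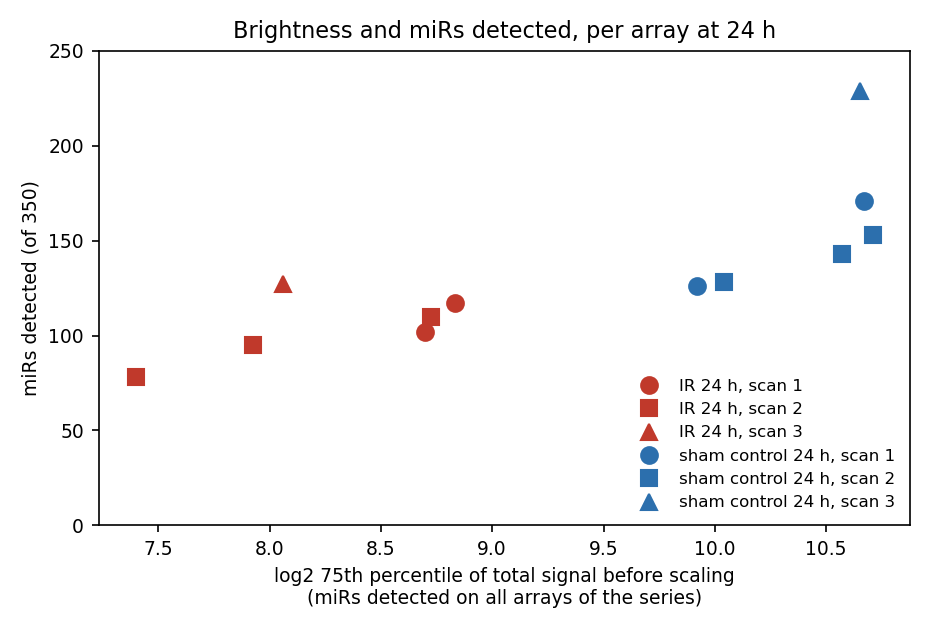
Each point is an array at 24 h, with the log2 75th percentile of total signal before scaling on the x axis and the number of miRs detected, of 350, on the y axis. All 6 IR arrays lie to the left of the 6 sham control arrays, and the symbols show that this was so within each of the 3 scans.

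Each array was therefore scaled to a common 75th percentile, signals were raised to a floor of 2.63 on the log2 scale, and all values below are log2 scaled signals or their differences, IR minus sham control. A miR was called when limma gave a difference of 2-fold or more together with an adjusted p (Benjamini-Hochberg) no higher than 0.05. Because of the scaling, a miR with a scaled difference of 0 had an unscaled signal 2.15 lower on the log2 scale in IR. Of the 76 miRs detected on all 12 arrays, 4 had a higher unscaled mean in IR, and the median unscaled difference was -2.08. Values from 3 settings that bear on the dimness of the IR arrays are given beside the results. They are a fit with array brightness as a covariate, a fit with the slide as a block, and a floor raised to 5.36 on the log2 scale. This floor, called the highest detection limit below, is the highest of the lowest detected signals of the 12 arrays. MiRs above it were not always detected, as rno-miR-181c was detected on 4 IR arrays with IR values from 5.54 to 6.00.

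The markers of the retina were present. The neuronal rno-miR-124 was detected on all 12 arrays, with IR arrays from 13.46 to 13.65 and sham control arrays from 13.29 to 13.83, and all members of the photoreceptor cluster were detected on all 12 arrays. The red blood cell markers rno-miR-451 and rno-miR-144 were detected on none of the 12 arrays. Of the leukocyte markers, rno-miR-142-3p and rno-miR-142-5p were detected on none and rno-miR-223 on 1 IR array and 1 sham control array. The summed scaled signal of the 4 leukocyte markers ranged from 37.6 to 116 units in IR and from 10.7 to 31.7 units in sham control, most of it below detection, and its part in the results was not tested. Rno-miR-223, from myeloid cells, ran from 4.57 to 6.73 in IR and from 2.63 to 3.99 in sham control.

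At 24 h of reperfusion, 29 of the 159 miRs tested (18.2%) were called by limma, 19 higher (11.9%) and 10 lower (6.29%) in IR. The IR and sham control arrays did not overlap for 27 of the 29, against 54 of all 159 (34%). The split between higher and lower calls depended on the scaling. It was 15 higher and 20 lower with the 75th percentile over all rat miRs, 15 and 16 with scaling to the median, 15 and 22 with quantile normalization, and 15 and 30 in the authors' own table. These scalings moved the median difference of the 159 miRs by -0.35, -0.22 and -0.22 for the first 3, so a difference of less than about that size has no settled direction. With the slide as a block 25 miRs were called, 12 higher and 13 lower, and 18 of them were among the 29. With normexp background correction the split was 60 higher and 0 lower, and without normalization between arrays it was 1 higher and 138 lower. With the floor lowered to 1 signal unit it was 18 higher and 25 lower.

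**Figure D2:**
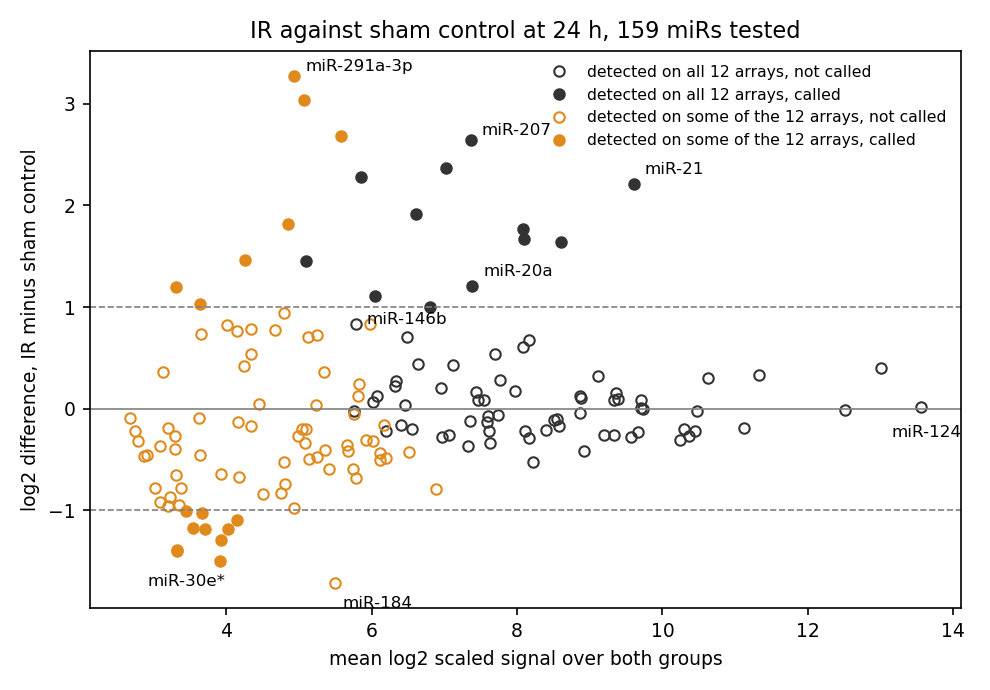
Each circle is 1 of the 159 miRs tested, with its mean log2 scaled signal over both groups on the x axis and its log2 difference, IR minus sham control, on the y axis. Filled circles were called, black ones were detected on all 12 arrays, and the dashed lines mark a difference of 1. The 12 called miRs detected on all 12 arrays all lie on or above the upper line, and the called miRs under the lower line lie among the dimmest signals.

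Among the 76 miRs detected on all 12 arrays, 12 were called (15.8%), and all 12 were higher in IR. To be among the 76, a miR had to be detected on every IR array. The lowest detected signal averaged 4.68 on IR arrays and 2.17 on sham control arrays. A dim miR that was lower in IR could therefore drop out, so the 76 give no even count of rises and falls. Rno-miR-21, known from injured tissue and reactive glia, had the smallest adjusted p of all 159. Its IR arrays had a lowest, median and highest value of 10.53, 10.70 and 11, and its sham control arrays had 8.33, 8.41 and 8.76. No IR array came near a sham control array. The difference was 2.21 (4.63-fold, SE 0.16, limma adjusted p = 2.13e-16), and it was 2.00, 2.30 and 2.37 within the 3 scans. Its unscaled mean was 0.06 higher in IR, on arrays that were otherwise dimmer. With array brightness as a covariate the difference was 1.98 and with the slide as a block 2.63, and both kept the call.

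Rno-miR-20a, a member of the rno-miR-17 cluster known from cell proliferation, had the second smallest adjusted p. Its IR arrays had a lowest, median and highest value of 7.83, 7.98 and 8.20, against 6.49, 6.81 and 7.05 on the sham control arrays. The groups were separate, and the difference was 1.21 (2.31-fold, SE 0.11, limma adjusted p = 2.31e-13). It was 1.34, 1.13 and 1.19 within the scans, 1.14 with the brightness covariate and 1.12 with the slide as a block. Under the other scalings it fell to between 0.85 and 0.98, just under the 2-fold threshold, with adjusted p at most 2.24e-07 (limma).

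The fitted differences varied among the miRs that share the seed of rno-miR-20a, but of these others only rno-miR-106b was detected on all 12 arrays. The sequences below are shown because they differ in few bases outside the seed.
rno-miR-17-5p: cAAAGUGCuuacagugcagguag
rno-miR-20b-5p: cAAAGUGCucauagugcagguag
rno-miR-93-5p: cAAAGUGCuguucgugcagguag
rno-miR-106b-5p: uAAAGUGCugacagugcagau
Rno-miR-20a differs from rno-miR-17-5p and from rno-miR-20b-5p at 2 of 23 positions and from rno-miR-93 at 4 of 23. With so few differences, the array probes may not keep these miRs fully apart. Rno-miR-93 was higher by 0.71 (SE 0.24, limma adjusted p = 0.0107) with overlapping groups, rno-miR-20b-5p by 0.79 (SE 0.43, adjusted p = 0.0981), and rno-miR-106b by 0.03 (SE 0.08, adjusted p = 0.714). Rno-miR-93 was detected on 3 IR arrays and 6 sham control arrays, and rno-miR-20b-5p on 2 and 4. Rno-miR-17-5p was detected on 0 IR arrays and 4 sham control arrays and was not tested. The cluster neighbor rno-miR-92a, with another seed, rose by 0.60 (1.52-fold, SE 0.08, limma adjusted p = 2.10e-08), with IR arrays from 8.10 to 8.51 and sham control arrays from 7.67 to 7.92. The neighbor rno-miR-19b, also detected on all 12 arrays, differed by 0.09 (SE 0.12, limma adjusted p = 0.5). A list of this and related clusters held 14 miRs, of which 8 were tested and 1, rno-miR-20a, was called. At the adjusted p alone, 3 of the 8 were higher and 1 lower. The lower one was rno-miR-363 at -0.78 (limma adjusted p = 0.0151), undetected on every IR array. Rno-miR-25 was at -0.22 (adjusted p = 0.0678).

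Rno-miR-539 comes from the large imprinted miR cluster on rat chromosome 6. Its IR arrays had a lowest, median and highest value of 6.55, 7.02 and 7.24, and its sham control arrays had 4.52, 4.63 and 5.23. All IR arrays were higher, by 2.28 on average (4.86-fold, SE 0.37, limma adjusted p = 1.19e-06). The difference was 2.50 with the brightness covariate and 2.69 with the slide as a block. The sham control signals lay below the highest detection limit of the 12 arrays, and with the floor raised to that limit the difference was 1.63.

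Rno-miR-206 is known as a miR of skeletal muscle. Its IR arrays had a lowest, median and highest value of 7.05, 7.56 and 7.93, against 5.29, 5.65 and 5.96 on the sham control arrays. The groups were separate, with a difference of 1.91 (3.77-fold, SE 0.42, limma adjusted p = 0.00016), 2.40 with the brightness covariate and 2.32 with the slide as a block. The other muscle markers, rno-miR-1, rno-miR-133a and rno-miR-133b, were detected on none of the 6 IR arrays. The summed scaled signal of the 4 muscle markers ranged from 136 to 279 units in IR and from 44.4 to 73.4 units in sham control. Most of each sum was rno-miR-206 itself, so the sum tells little of the other markers.

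Rno-miR-672 and rno-miR-466b belong to a list named rodent-specific. The IR arrays of rno-miR-672 had a lowest, median and highest value of 8.32, 8.97 and 9.32, and the sham control arrays had 6.99, 7.31 and 7.51. Its difference was 1.67 (3.17-fold, SE 0.34, limma adjusted p = 6.01e-05), and 1.65 with the brightness covariate. The IR arrays of rno-miR-466b had 8.86, 9.46 and 9.96, and the sham control arrays had 7.43, 7.87 and 8.06. Its difference was 1.64 (3.11-fold, SE 0.32, limma adjusted p = 3.26e-05), and 1.37 with the covariate. Neither miR had overlapping groups, and both kept their call with the slide as a block, at 2.02 and 1.96.

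**Figure D3:**
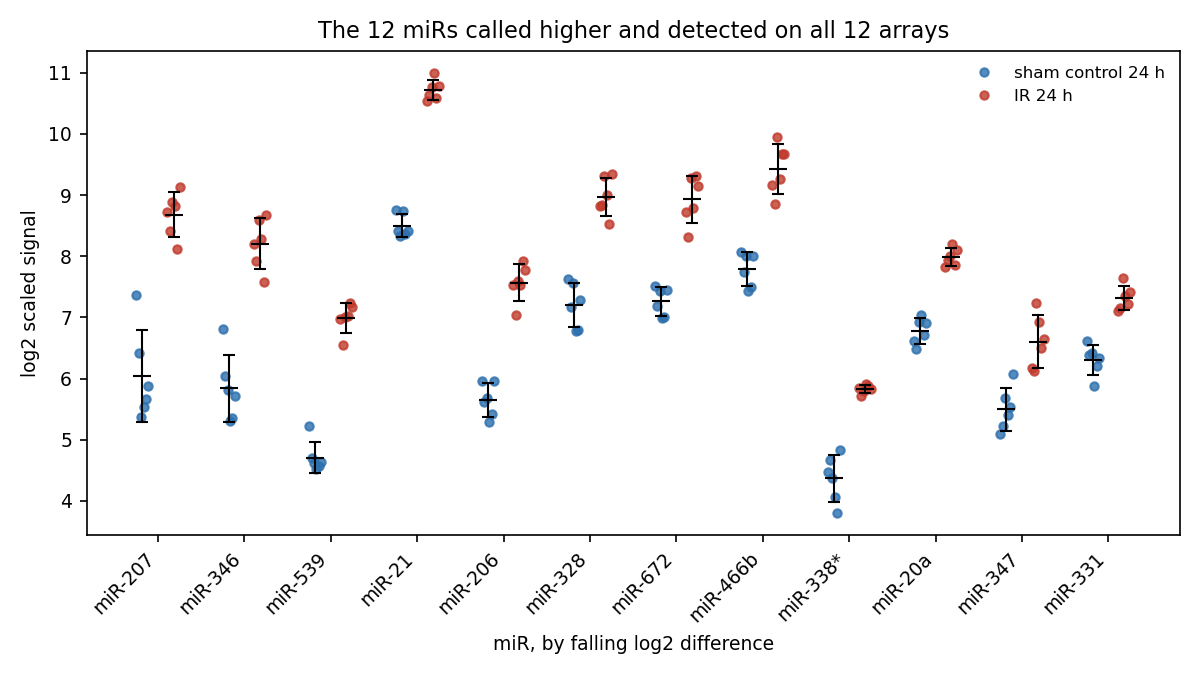
Log2 scaled signal (y axis) of the 12 miRs called higher and detected on all 12 arrays (x axis), with a point per array, blue for sham control and red for IR, and bars for the mean ± SD of 6 arrays. Every IR array lies above every sham control array for each of the 12 miRs, and the sham control values spread most for rno-miR-207, from 5.37 to 7.37.

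These 6 miRs, rno-miR-21, rno-miR-20a, rno-miR-539, rno-miR-206, rno-miR-672 and rno-miR-466b, kept their call with the brightness covariate, the slide block and the raised floor. The other 6 of the 12 did not keep it in all 3 settings. The raised floor lay below every 24 h value of rno-miR-21, rno-miR-20a, rno-miR-672 and rno-miR-466b. It therefore could not change their differences and was no test of them. Rno-miR-207 had IR arrays with a lowest, median and highest value of 8.11, 8.77 and 9.14 and sham control arrays with 5.37, 5.78 and 7.37. Its difference of 2.64 (6.25-fold, SE 0.72, limma adjusted p = 0.00178) became -0.27 (SE 0.81, adjusted p = 0.825) with the brightness covariate. Rno-miR-346 was similar, with IR values of 7.58, 8.24 and 8.67 and sham control values of 5.31, 5.76 and 6.81. Its difference of 2.37 (5.16-fold, SE 0.63, limma adjusted p = 0.00145) became -0.37 (SE 0.68, adjusted p = 0.733) with the covariate. Both also lost the call with the slide as a block, at 2.52 (adjusted p = 0.148) and 2.04 (adjusted p = 0.187).

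Rno-miR-328, rno-miR-347 and rno-miR-331 had smaller differences that shrank with the covariate. Rno-miR-328 had IR arrays from 8.52 to 9.34 and sham control arrays from 6.78 to 7.64, and its difference of 1.77 (3.40-fold, SE 0.27, limma adjusted p = 3.56e-07) became 0.31 (adjusted p = 0.361). Rno-miR-347 had IR arrays from 6.13 to 7.23 and sham control arrays from 5.09 to 6.07, with 1.11 (SE 0.20, adjusted p = 9.27e-06) and, with the covariate, 0.44 (adjusted p = 0.217). Rno-miR-331 had IR arrays from 7.10 to 7.64 and sham control arrays from 5.89 to 6.62. Its difference of 1.00 (SE 0.16, limma adjusted p = 9.52e-07) stood at the 2-fold threshold, became 0.22 (adjusted p = 0.335) with the covariate, and lost the call when any of 5 arrays was left out, with the lowest value of 0.92 without sham control replicate 4. Rno-miR-347 fell to 0.98 without IR replicate 3.

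Rno-miR-338*, the passenger strand of the miR-338 hairpin, rose while its partner strand fell slightly. Rno-miR-338* had IR arrays with a lowest, median and highest value of 5.71, 5.84 and 5.91 and sham control arrays with 3.81, 4.43 and 4.84. Its difference was 1.46 (2.75-fold, SE 0.31, limma adjusted p = 0.000102), and it was 1.45 with the brightness covariate. It was 0.43 (adjusted p = 0.427) with the slide as a block and 0.47 with the floor at the highest detection limit, above the level of all sham control arrays. Rno-miR-338 had IR arrays from 7.25 to 7.56 and sham control arrays from 7.69 to 7.94, a difference of -0.33 (SE 0.07, limma adjusted p = 4.57e-05) with no overlap.

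The remaining 7 miRs called higher were detected on part of the arrays. Rno-miR-291a-3p, known from embryonic stem cells, was detected on 6 IR arrays and 2 sham control arrays, with IR values from 6.15 to 7.15 and sham control values from 2.65 to 4.62. Its fitted difference of 3.27 (SE 0.46, limma adjusted p = 1.26e-07) became 1.48 (adjusted p = 0.045) with the brightness covariate. Rno-miR-493, detected on 5 and 2 arrays, went from 3.04 (SE 0.42, limma adjusted p = 6.22e-08) to 1.57 (adjusted p = 0.0228), and rno-let-7d*, detected on 6 and 4, from 2.68 (SE 0.55, adjusted p = 7.28e-05) to 0.59 (adjusted p = 0.58). Rno-miR-378* was detected on 2 arrays of each group, with IR values from 5.19 to 6.47 and sham control values from 3.45 to 4.40. Its difference of 1.82 (SE 0.31, limma adjusted p = 3.16e-06) became 0.65 (adjusted p = 0.217) with the covariate. Rno-miR-125a-3p was called at 1.46 although no IR array detected it, so no fold change is given for it. The other two, rno-miR-99b* and rno-miR-333, were fitted at 1.20 and 1.03 with detection on 3 IR arrays each. The raised floor lay above all their 24 h values, so both were necessarily at 0 there.

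All 10 miRs called lower, rno-miR-495, rno-miR-532-5p, rno-miR-185, rno-miR-335, rno-miR-138, rno-miR-148b-3p, rno-miR-379, rno-miR-376a, rno-miR-375 and rno-miR-30e*, were undetected on every IR array. They had 4 to 6 detections among the sham control arrays, and their fitted differences ran from -1.01 to -1.49. The lowest scaled signal at which a miR was detected averaged 4.68 ± 0.67 for IR retinas and 2.17 ± 0.83 for their sham counterparts (SD, n = 6 each), so a miR at such levels could be seen in sham control retinas and missed in IR retinas. Against that limit a bound above 1 was left only for rno-miR-185, at 1.01-fold lower. It is not firm, because some miRs above that limit on an array were undetected there. Rno-miR-30e*, with sham control values from 4.53 to 4.78 and IR values from 2.63 to 4.10, went from -1.49 (SE 0.23, limma adjusted p = 4.26e-07) to -0.78 (adjusted p = 0.045) with the brightness covariate. Of the 10, 0 kept the call with the covariate and 6 kept it with the slide as a block. The raised floor lay above every 24 h value of the 10, so all were necessarily at 0 there and no call could be kept. Rno-miR-495, at -1.01, lost the call when any of 6 arrays was left out.

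At the adjusted p alone, 96 of the 159 miRs differed (60.4%), 39 higher (24.5%) and 57 lower (35.8%). Of the 76 miRs detected on all 12 arrays, 24 were higher and 16 lower by this rule, and 28 of these 40 had changed by less than 2-fold. The difference lay within 0.5 in either direction for 58 of the 76. Rno-miR-146b, a miR induced in inflammation, rose by 0.83 (1.78-fold, SE 0.12, limma adjusted p = 2.16e-07), with a lowest, median and highest value of 6.06, 6.13 and 6.55 on IR arrays and 5.16, 5.36 and 5.67 on sham control arrays. The groups did not overlap, and the difference was 0.84, 0.85 and 0.74 within the scans. Rno-miR-324-3p rose by 0.67 (SE 0.14, adjusted p = 9.05e-05), also with no overlap, and rno-miR-487b by 0.70 (SE 0.21, adjusted p = 0.00473) with overlap. Of the falls in these 76, that of rno-miR-129*, a neuronal miR, was the largest at -0.52 (SE 0.14, limma adjusted p = 0.00112), with IR arrays from 7.75 to 8.08 and sham control arrays from 8.32 to 8.68. Rno-miR-125b-5p, known from glia and neurons, fell by 0.42 (SE 0.10, adjusted p = 0.000249), and 0.58, 0.32 and 0.40 within the scans. The other glial markers did not fall. Rno-miR-99a differed by 0.15 (limma adjusted p = 0.201) and rno-miR-100 by 0.07 (adjusted p = 0.627), and the median of these 3 markers was 0.07.

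The photoreceptor cluster changed little at 24 h. Of its 3 miRs, rno-miR-183 was higher by 0.40 (SE 0.09, limma adjusted p = 0.000245), with IR arrays from 13.12 to 13.33 and sham control arrays from 12.68 to 13.11. Rno-miR-182 differed by 0.08 (SE 0.10, adjusted p = 0.469) and rno-miR-96 by -0.01 (SE 0.11, adjusted p = 0.939). The sign of rno-miR-183 turned with normexp correction, and rno-miR-182 became -0.23 with the 75th percentile over all rat miRs, -0.15 with scaling to the median and -0.27 in the authors' table. The median of the list was 0.08, against -0.13 over all 159 tested.

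Of 12 neuronal miRs tested, 0 were called higher and 1 lower, against 11.9% and 6.29% of all 159, and 8 were lower at the adjusted p alone, against 35.8% of all. Their median difference was -0.39, against -0.13 over all 159. Rno-miR-124, the hallmark miR of neurons, differed by 0.02 (SE 0.11, limma adjusted p = 0.899), and by -0.13 to -0.48 under 7 of the other settings. Rno-miR-9 was lower by 0.37 (-0.37, SE 0.15, adjusted p = 0.0376), and it turned to 0.21 with normexp. Rno-miR-7a, known from neurons and endocrine cells, had IR arrays from 5.17 to 5.69 and sham control arrays from 5.82 to 6.33, a difference of -0.59 (SE 0.12, limma adjusted p = 3.48e-05), but was detected on 4 of the 6 IR arrays. Most of the others of this list were undetected on part or all of the IR arrays, rno-miR-138, rno-miR-153 and rno-miR-124* on every one.

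Of the activity-regulated pair, made from a common transcript and known to follow CREB in neurons, neither was called, and rno-miR-212 passed the adjusted p alone. The pair shares its seed.
rno-miR-132-3p: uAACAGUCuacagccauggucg
rno-miR-212-3p: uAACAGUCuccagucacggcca
Rno-miR-212 had IR arrays from 7.56 to 8.39 and sham control arrays from 7.17 to 7.70, a difference of 0.53 (SE 0.18, limma adjusted p = 0.0126), and rno-miR-132 differed by 0.12 (SE 0.11, adjusted p = 0.329). Of the injury list, 3 of 5 miRs were tested and 1, rno-miR-21, was called. Rno-miR-34a, a target of p53, rose by 0.43 (SE 0.08, adjusted p = 1.50e-05) with overlap at the edge, and rno-miR-210, known from hypoxia, differed by 0.11 (SE 0.13, adjusted p = 0.465). Under each of the other scalings rno-miR-212, rno-miR-34a and rno-miR-183 no longer passed the adjusted p, and rno-miR-132 and rno-miR-210 turned negative.

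Of the 7 leukocyte and inflammation miRs, 2 were tested, rno-miR-146b as given and rno-miR-150 (-0.37, detected on no IR array, limma adjusted p = 0.0853), and 4, rno-miR-146a among them, were detected on none of the 12 arrays. Of the 12 vascular and pericyte miRs 2 were tested. The endothelial rno-miR-126 was lower by 0.52 (-0.52, SE 0.16, limma adjusted p = 0.00496) but was detected on 1 IR array, and it was 0.92 higher with normexp. The smooth muscle and pericyte miR rno-miR-143 differed by -0.05 (SE 0.10, adjusted p = 0.66), and rno-miR-145 was detected on none of the 12 arrays. In the pigment epithelium and lens list, rno-miR-204 was lower by 0.27 (-0.27, SE 0.10, limma adjusted p = 0.0264) and rno-miR-211 differed by -0.04 (SE 0.12, adjusted p = 0.764). Rno-miR-184, abundant in lens and cornea, varied widely, from 3.62 to 7.82 on IR arrays and from 2.63 to 10.25 on sham control arrays.

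Families of housekeeping character moved within narrow bounds. Of 8 let-7 miRs tested 0 were called, with differences from -0.28 to 0.30 and 1 past the adjusted p, rno-let-7b (0.30, SE 0.08, limma adjusted p = 0.0017). Of 5 miR-30 family members 0 were called, with a median of -0.21, and of 3 miR-29 members 0, with rno-miR-29a at 0.33 (SE 0.08, adjusted p = 0.000878) and the lowest at -0.22. In the imprinted cluster of chromosome 6, 20 of 44 miRs were tested, 2 were called higher, rno-miR-539 and rno-miR-493, and 3 lower, against 11.9% and 6.29% of all 159. The median was -0.27, and 16 of the 44 were detected on none of the 12 arrays. A list named rodent-specific, a name not checked for each member, held 22 miRs. It was written with earlier results of these data known, so its share of calls is no independent evidence. Of its miRs 8 were tested and 7 were called higher, against 11.9% of all 159, with a median difference of 1.65 against -0.13. Of these 7, rno-miR-207, rno-miR-346 and rno-miR-347 lost the call with the brightness covariate, and the same miRs and rno-miR-333 with the slide as a block. The eighth, rno-miR-352, was at -0.64 (SE 0.28, adjusted p = 0.0449) and undetected on all IR arrays.

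**Figure D4:**
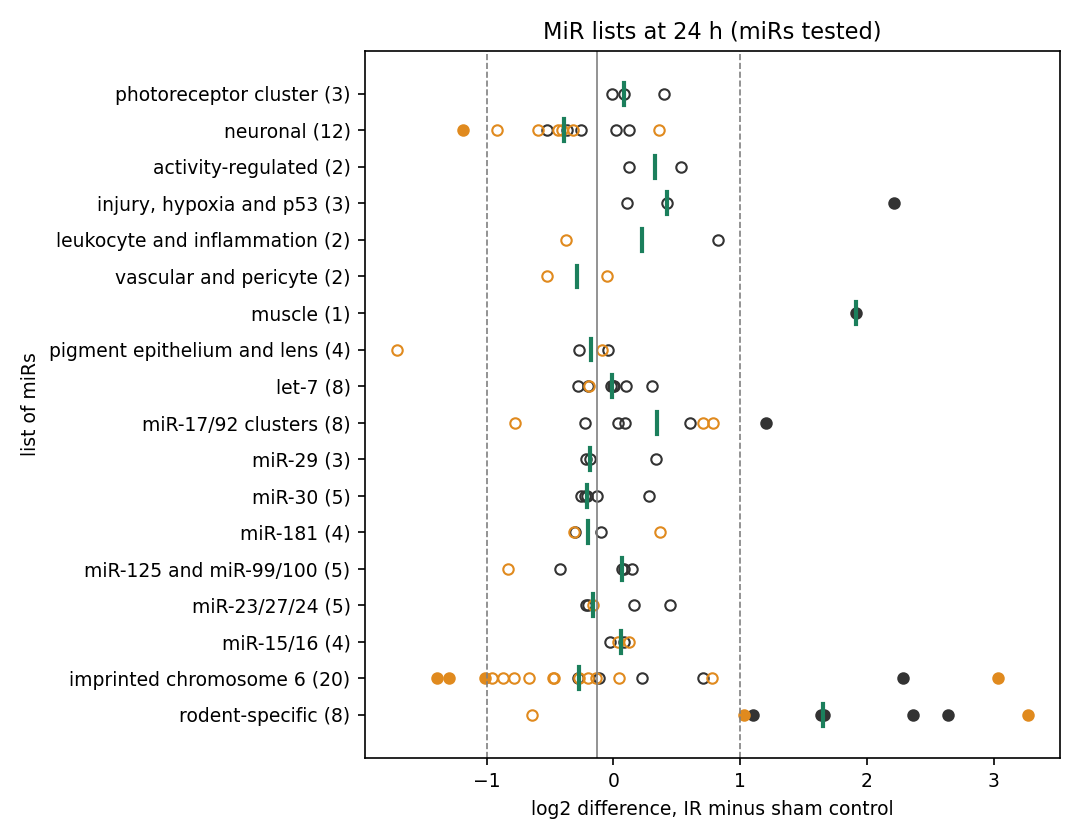
Log2 difference, IR minus sham control at 24 h (x axis), for the tested miRs of 18 lists (y axis, number tested in parentheses), black for miRs detected on all 12 arrays, orange for the others, filled when called. The green bar is the median of a list, the gray line the median of -0.13 over all 159 miRs, and the dashed lines mark a difference of 1. The list named rodent-specific, written with earlier results of these data known, has 7 of 8 miRs beyond the right dashed line.

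The IR effect at 24 h differed from that at 2 h for 15 of the 159 miRs (9.43%) by limma, in the test of the difference itself, 10 higher (6.29%) and 5 lower (3.14%) at 24 h. At 2 h the brightness of IR arrays was 0.04 above that of sham control arrays on the log2 scale (exact permutation test, p = 0.894), so brightness and time moved together in this test. Rno-miR-21 had an effect of 0.00 at 2 h and 2.21 at 24 h, a difference of 2.21 (SE 0.23, adjusted p = 8.69e-11). Rno-miR-146b went from -0.26 to 0.83, a difference of 1.09 (SE 0.17, limma adjusted p = 3.77e-06), and fell just under the 2-fold threshold, to between 0.76 and 0.97, with 7 of the other processings. Rno-miR-20a went from 0.41 to 1.21 (0.80, SE 0.15, adjusted p = 0.000149), under the threshold of 1. With the brightness covariate the differences of rno-miR-328 (1.95), rno-miR-378* (1.98) and rno-let-7d* (3.44) became 0.47, 0.79 and 1.31, and none passed the adjusted p.

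Of the miRs called at 24 h, 4 that were picked with their values in view had similar fitted effects at 2 h. Brightness differed by 0.04 at 2 h, and its part in the effects of this paragraph was not tested. Rno-miR-539 had an effect of 2.60 at 2 h, rno-miR-206 2.33, rno-miR-672 1.74 and rno-miR-466b 1.26. The differences between 24 h and 2 h were -0.31 (SE 0.52), -0.42 (SE 0.59), -0.07 (SE 0.48) and 0.38 (SE 0.45), with limma adjusted p from 0.509 to 0.916, and errors of this size leave room for differences near 1. Rno-miR-207 and rno-miR-346 had effects of -1.50 and -1.22 at 2 h, the opposite sign to 24 h, and their differences of 4.14 (SE 1.02) and 3.59 (SE 0.89) were past the threshold (adjusted p = 0.00183 and 0.00203).

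Between 24 h and 48 h the IR effect differed for 0 of the 159 miRs (0%) by limma, with a smallest adjusted p of 0.204 and 19 miRs at an unadjusted p under 0.05. Brightness was lower in IR at 48 h too, by 1.19 on the log2 scale (exact permutation test, p = 0.00649). Rno-miR-21 had an effect of 2.20 at 48 h, against 2.21 at 24 h, a difference of 0.01 (SE 0.23). Rno-miR-146b was at 0.80 at 48 h and rno-miR-20a at 1.34. Rno-miR-328 and rno-miR-347 had smaller effects at 48 h, 0.88 and 0.34, and their differences of 0.88 (SE 0.38, adjusted p = 0.278) and 0.77 (SE 0.28, adjusted p = 0.204) did not pass.

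**Figure D5:**
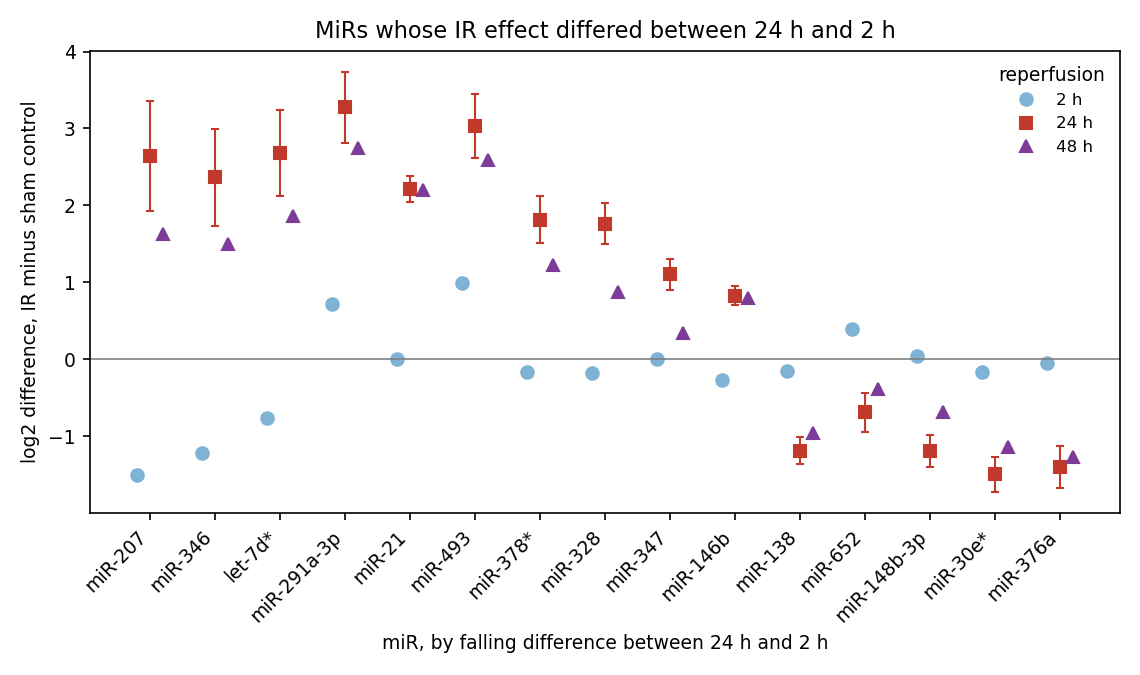
Log2 difference, IR minus sham control (y axis), at 2 h, 24 h and 48 h of reperfusion for the 15 miRs whose effect differed between 24 h and 2 h (x axis), with the SE of the 24 h value as bars. Rno-miR-21 is at 0.00, 2.21 and 2.20 at the 3 times.

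A last list holds the best-connected miRs of a network built for this time point, chosen by the study on these same samples and so no independent evidence. Of its 10 miRs, 5 were tested. Rno-miR-207, rno-miR-206 and rno-miR-466b were called higher, rno-miR-495 was called lower, and rno-miR-33 was at -0.22 (SE 0.09, limma adjusted p = 0.0288) with IR arrays all at the floor. Rno-miR-33 was detected on 0 IR arrays and 4 sham control arrays. Its difference depended on the processing. It was -2.24 (limma adjusted p = 0.000138) with a floor of 1 signal unit and -1.49 (adjusted p = 0.00151) in the authors' table. It was 0.13 with probes averaged on the log2 scale and 1.22 with normexp. The other 5, rno-miR-214, rno-miR-298, rno-miR-19a, rno-miR-221 and rno-miR-297, were each detected on at most 1 IR array and 1 sham control array and were not tested.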

How the data were processed

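Total RNA (100 ng, RNA integrity number over 8) carried a Cy3 label on 1-colour Agilent arrays, 8 to a slide, on 9 slides with 3 scan dates. Per the file headers, the authors extracted the intensity of each spot with Feature Extraction, which subtracted the background; the deposited total signal of a miR sums its probes and was not normalized between arrays. A second deposited file holds the authors' log2 values of 219 features, made in GeneSpring with scaling to the 75% quantile, and served only as an alternative. Array annotation is on rn4.

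All 60 arrays entered 1 limma fit (limma 3.58.1, R 4.3.3) with 10 groups of 6 and no covariate. Scaling used the 75th percentile of 57 miRs that every array detected, values under 6.20 units were set to 6.20, and log2 was taken. Tests covered 159 of 350 miRs, those that some group detected on all of its 6 arrays. Calls needed a 2-fold difference and an adjusted p, over the 159, no higher than 0.05. For array measures, exact two-sided permutation tests were used. No 2 of the 12 arrays held the same values, and the number of arrays limits the precision. Named miRs were those called and detected on all 12 arrays, the 3 other called miRs of largest rise and of largest fall with no overlap, a list of retinal and injury miRs, the study's 10 best-connected miRs, and up to 5 miRs that differed from 2 h or 48 h. Any others named were picked with their values in view. The miRs and lists were chosen with earlier results of these data known. The fit was tested on simulated data, which modeled neither background nor detection and so do not bear on calls near the detection limit. Figures were drawn with matplotlib 3.10.9 in Python 3.11.15.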

Additional observations from a re-analysis of the deposited data

Results flagged for a closer look

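Among 76 groups of 6 arrays examined for an outlying array, of which chance gives about 1 in 20, 5 held an array whose gap to the next exceeded Dixon's critical value. Rno-miR-184 on IR replicate 5 was at 7.82, with the next IR array at 4.85 and the lowest at 3.62. Rno-miR-539 on sham control replicate 1 was at 5.23, with the next at 4.70, and this array still lay below every IR array. Rno-miR-183 on sham control replicate 3 was at 13.11, with the next at 12.82, rno-miR-143 on IR replicate 3 at 5.16, with the next at 5.68, and rno-miR-146b on IR replicate 4 at 6.55, with the next at 6.22.

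The IR effect differed between 24 h and 2 h in the test of the difference for rno-miR-21 (2.21, limma adjusted p = 8.69e-11), rno-miR-146b (1.09, adjusted p = 3.77e-06), rno-miR-328 (1.95, adjusted p = 0.000149), rno-miR-378* (1.98, adjusted p = 0.00078) and rno-let-7d* (3.44, adjusted p = 0.00112).

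Of the 191 miRs left out of the tests, 10 were detected on an IR array at 24 h and 5 on more IR than sham control arrays, although the IR arrays were dimmer. These were rno-miR-483 and rno-miR-872*, detected on 5 IR arrays and 3 sham control arrays each, rno-let-7b* on 4 and 3, rno-miR-196c on 4 and 2, and rno-miR-760-5p on 4 and 1.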

How the results depend on the processing

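Leaving out each of the 12 arrays in turn gave 25 to 34 miRs called at 24 h, 13 to 22 that differed from 2 h and 0 that differed from 48 h. The 29 calls became 14 (14 higher) with array brightness as a covariate, with 12 of the same miRs, 14 with the highest detection limit as floor, 12 with only the miRs detected on all 12 arrays tested, 44 with miRs detected on at least 1 array, 45 with all rat miRs, 45 in the authors' table, 60 with normexp, 139 with no normalization, 57 at 1.5-fold and 96 with no fold threshold. The 15 that differed from 2 h became 23 with the 75th percentile over all rat miRs, 28 with quantile normalization, 148 with no normalization, 4 with normexp, 9 with the raised floor, 6 with the miRs detected on all 12 arrays, 26 with those detected on at least 1, 27 with all rat miRs, 4 with the covariate and 39 in the authors' table. The 0 that differed from 48 h became 8 with probes averaged on the log2 scale, and 1 each with the raised floor, with miRs detected on at least 1 array, with all rat miRs and with the slide as a block. The cause was not tested, except that fewer or more miRs were tested where the settings say so.

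The replicate number was shared by both groups and followed the scan in both. The correlation of deviations of IR and sham control arrays of the same number ran from 0.01 to 0.30. For IR replicate 2 the sham control array of the same number correlated best, and for the other IR arrays another number did. These values cannot settle whether the number pairs the arrays, and the main fit did not pair them. With a replicate block, 29 miRs were called at 24 h, 18 differed from 2 h and 0 from 48 h.

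The direction turned for some miRs, most of them with differences near 0. It turned with the brightness covariate for rno-miR-207 (-0.27), rno-miR-346 (-0.37), rno-miR-124 (-0.29), rno-miR-210 (-0.12) and rno-miR-143 (0.052). For rno-miR-124, rno-miR-182, rno-miR-132 and rno-miR-210 it turned with the 75th percentile over all rat miRs (-0.30, -0.23, -0.19 and -0.21), with scaling to the median (-0.21, -0.15, -0.11 and -0.12) and in the authors' table (-0.34, -0.27, -0.23 and -0.25). Quantile normalization turned rno-miR-132 (-0.13) and rno-miR-210 (-0.10). With probes averaged on the log2 scale it turned for rno-miR-124 (-0.13), rno-miR-132 (-0.083), rno-miR-210 (-0.11) and rno-miR-33 (0.13), and with the slide as a block for rno-miR-124 (-0.19), rno-miR-132 (-0.28), rno-miR-210 (-0.42) and rno-miR-211 (0.21). With normexp it turned for rno-miR-30e* (0.95), rno-miR-375 (1.04), rno-miR-376a (1.01), rno-miR-124 (-0.48), rno-miR-9 (0.21), rno-miR-183 (-0.20), rno-miR-126 (0.92), rno-miR-143 (0.86), rno-miR-211 (0.065), rno-miR-495 (1.07) and rno-miR-33 (1.22). With single arrays left out, the values ran from -0.034 to 0.074 for rno-miR-124, from -0.060 to 0.033 for rno-miR-96, from -0.13 to 0.015 for rno-miR-211 and from -0.098 to 0.062 for rno-miR-143. Over single miRs and the 17 alternatives, 589 values kept direction and side of the threshold, 53 fell below it, 3 passed it and 38 turned.

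Array brightness differed by -1.84 with the 75th percentile over all rat miRs, by -1.92 with the median, and by -2.26 to -1.98 with single arrays left out. The number of detected miRs differed by -63.67 when 1 probe well above background was asked for, and by -59.97 to -39.37 with single arrays left out. Exact permutation p was at most 0.0108 in these. Dim arrays limit what can be seen, since miRs under the IR detection limit have only an upper bound there.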
